A study of Cenchrus americanus with 9 samples.

Results

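The genes described here were low in the crown roots of pearl millet and higher in both its lateral roots and its primary roots. They were selected on the RNA-seq values themselves. A gene was retained when its lowest normalised count among the 6 lateral and primary root libraries was at least 100 and at least 2 times its highest value among the 3 crown root libraries, when its lowest lateral root value was below 2 times its highest primary root value, and when each root type had a value above 0. Of the 19754 genes of the deposited table, 76 (0.385%) met these conditions. Of the 14561 genes with at least 100 in every lateral and primary root library, the 76 made up 0.522%. The low level in crown roots is therefore how the genes were found and is described here without a test.

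Cereals form a root system from several kinds of root. The primary root emerges from the embryo, crown roots are borne by the shoot and form later at the stem nodes, and lateral roots branch from existing roots and make up much of the absorbing surface. Root types of a single plant are known to differ in diameter, anatomy and branching, and crown roots of grasses are typically the thicker, shoot-borne part of the mature system.

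All samples came from Tift23DB, the reference genotype of pearl millet, after 15 days in rhizotrons, which are flat soil boxes with a removable transparent face. The 3 groups were crown root tips (apical 5 cm), lateral roots carried by primary roots, and primary root tips (apical 5 cm), with 3 replicates of each and no treatment. Each replicate pooled the roots of 3 plants, so the spread between replicates is that between pools. For lateral roots the length sampled is not stated, so in comparisons with them root type and the part of the root sampled cannot be told apart.

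A normalised count is a count per gene divided by 1 factor per library. It is not divided by gene length, so the levels of different genes cannot be compared as expression, and levels are compared below within a gene. Library totals of counts recovered from the table ran from 49026933 to 55457911 in crown roots, from 45602970 to 64062081 in lateral roots and from 39739052 to 58752339 in primary roots, so the depths of the root types overlapped. Totals of the normalised counts stayed higher in crown roots, from 52916036 to 57967565, than in lateral roots (48396078 to 49845075) or primary roots (47180332 to 50460211). Gene identifiers are given as in the table, which does not pair them with gene names, so no function is stated for any gene and the root types could not be checked against marker genes. In bulk tissue, fewer cells of a type and less RNA per cell cannot be told apart.

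Summed over the 76 genes, normalised counts came to 25707, 28182 and 28555 in crown root replicates 1 to 3. The lateral root sums were 203465, 222585 and 217147. Primary roots gave 97080, 132290 and 113095. The genes thus took from 0.0444% to 0.0540% of the library total in crown roots, from 0.412% to 0.449% in lateral roots and from 0.196% to 0.280% in primary roots. The 8 genes with the highest values held 54.4% of the summed mean over lateral and primary roots, so the sums mainly follow these genes. The median gene gives the same order of root types, at 99.8, 116 and 132 for crown roots, 958, 1001 and 1009 for lateral roots and 506, 720 and 522 for primary roots.

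Lateral and primary roots also differed in order among these genes. In 46 of the 76 (60.5%) every lateral root replicate lay above every primary root replicate, in 27 the replicates overlapped, and in 3 every lateral root replicate lay below every primary root replicate. Among the 14249 genes that met all the conditions except the fold over crown roots, lateral roots lay above primary roots in 19.2% and below them in 19.6%. The order draws on values the selection used, so these shares are a description. The lateral root mean was over 1.5 times the primary root mean in 46 of the 76 genes and within 1.5 times of it in 28, and the primary root mean was over 1.5 times the lateral root mean in 2. The condition on lateral roots compares the lowest lateral with the highest primary value, so a ratio of means above 2 could pass. It still left out 68 of the 144 genes that met the crown root conditions. In each of the 68, every lateral root library was at least 2 times every primary root library. The count of 46 thus depends on this condition. The order alone says little of the size, since the ratio of lateral to primary root means ran from 1.24 to 4.23 in the 46 genes and from 0.644 to 2.65 in the 27 with overlap. In 7 of these 27, every lateral root value was above primary root replicates 1 and 3, and the overlap was with replicate 2.

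**Figure D1:**
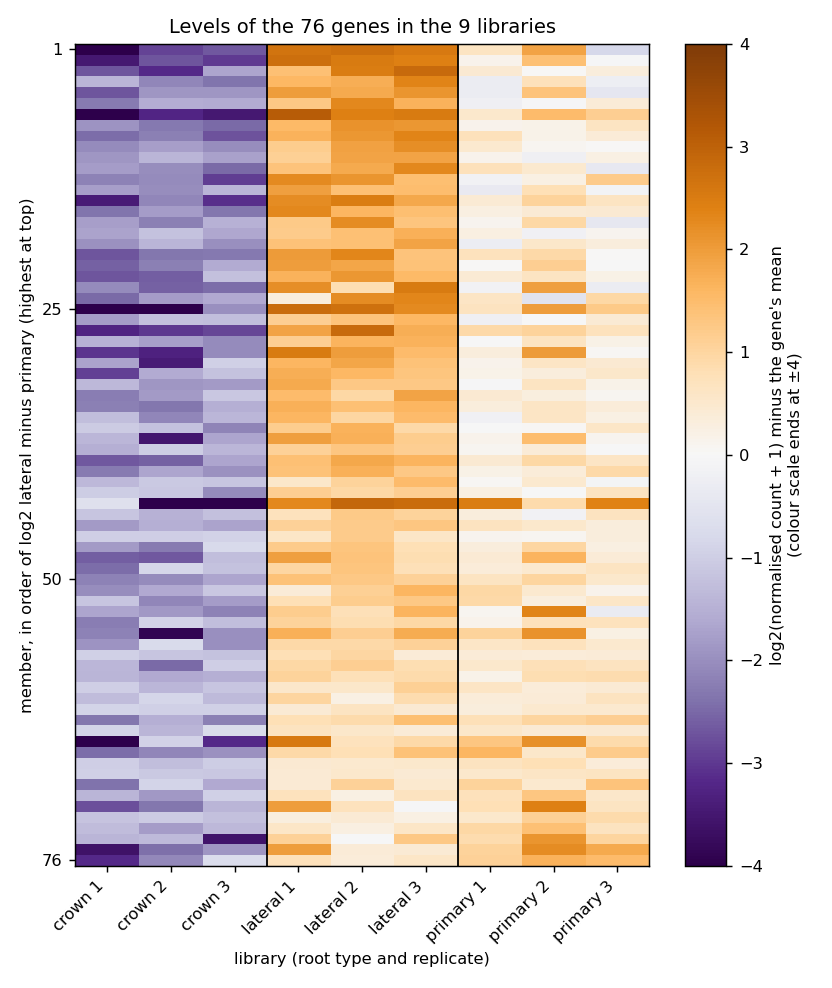
Each row is 1 of the 76 genes, in order of the log2 fold change of lateral over primary roots, and each column is 1 library. Colour gives log2(normalised count + 1) minus the mean of that gene over the 9 libraries, with values beyond 4 in either direction shown at the end of the scale. All 3 crown root libraries are below the gene's mean in each of the 76 rows, and lateral roots are of a stronger orange than primary roots in the upper rows.

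On a log2 scale from the crown root mean (0) to the lateral root mean (1), the primary root mean lay at a median of 0.72, with a range from 0.52 in Pgl_GLEAN_10031653 to 1.35 in Pgl_GLEAN_10017483, both named after their values were seen. The selection kept primary root values away from the crown root end and bounded lateral against primary roots. The position on this scale is therefore a description only. The lateral root mean was a median of 9.57 times the crown root mean (range 2.74 to 85.0), and the primary root mean a median of 4.89 times the crown root mean (range 2.20 to 27.9). A lateral root mean at least 10 times the crown root mean was found in 36 genes, and a primary root mean at least 10 times it in 13.

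The 46 genes with lateral roots on top had a median ratio of 10.5 between lateral and crown root means and of 4.44 between primary and crown root means. In the 27 genes with overlap these medians were 6.84 and 5.73. These groups were divided by their lateral against primary root values, so the differences follow in part from the division. The 68 genes that met the same crown root conditions but had at least 2 times more in every lateral than in every primary root library are the nearest set outside. Their medians were 28.3 and 5.93, and their primary root mean lay at a median of 0.53 on the same log2 scale. This set was separated from the 76 genes by the ratio of lateral to primary roots, so their difference on the scale is given as a description.

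The share of the 76 genes passing the thresholds was read against that of all genes. A gene was called when its adjusted p was below 0.01 and it changed by 1 or more on the log2 scale (limma on log2(normalised count + 1), Benjamini-Hochberg over the 19754 genes). In crown against lateral roots all 76 passed as lower in crown roots, where 8.38% of all genes did. In crown against primary roots 64 of the 76 passed as lower in crown roots, where 1.18% of all genes did. Both contrasts were used to select the genes, so these counts carry no support of their own. The 12 genes without a call between crown and primary roots missed the adjusted p, since the smallest drop among the 76 was 1.13 on the log2 scale, with the median at -2.29 against -0.02 for all genes. The median log2 fold change of crown over lateral roots was -3.23, against -0.02 for all genes.

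In lateral against primary roots, 15 of the 76 genes passed as higher in lateral roots, where 3.24% of all genes did, and 0 passed as lower, where 1.08% of all genes did. At an unadjusted p under 0.05, 46 of the 76 passed in either direction, where 29.3% of all genes did. With edgeR on recovered counts, 18 of the 76 were called higher in lateral roots, where 2.88% of all genes were, and 0 lower, where 0.906% were. The 15 genes had lateral root means from 2.03 to 3.73 times their primary root means. The selection bounded this contrast on the lateral side, so these counts are a description too. Without lateral root replicate 2 0 of the 76 were called (295 of all genes, against 853 with it, and 40 of the 76 at an unadjusted p under 0.05), and without lateral root replicate 3, 3 were (343 of all genes).

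**Figure D2:**
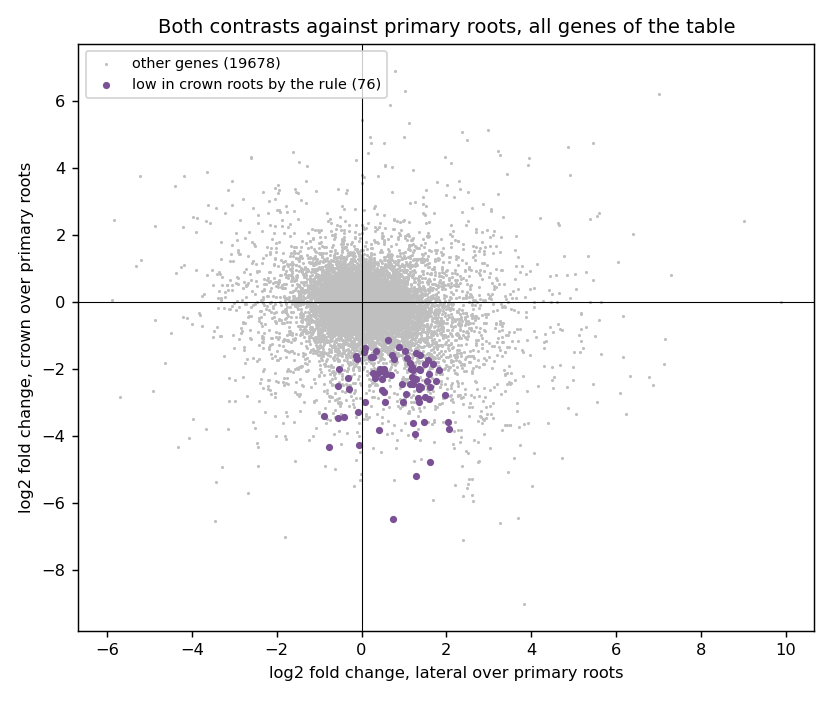
The horizontal axis gives the log2 fold change of lateral over primary roots and the vertical axis that of crown over primary roots, both on log2(normalised count + 1), for the 76 genes (purple) and the other genes of the table (grey). All 76 lie at or below -1.13 on the vertical axis, and 64 of them lie to the right of 0 on the horizontal axis.

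The separation of each gene was expressed as its lowest lateral or primary root value over its highest crown root value. This ratio was from 2 to 2.5 in 29 genes, from 2.5 to 3 in 20, from 3 to 5 in 17 and at least 5 in 10, with a median of 2.60. The lowest value came from a primary root library in 64 of the 76 genes, namely replicate 1 in 26, replicate 3 in 25 and replicate 2 in 13. Lateral root libraries set it in 12 genes. The gap that defines the genes was thus mainly the gap between crown and primary roots. The highest crown root value was in replicate 3 in 30 genes, replicate 2 in 25 and replicate 1 in 21.

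Pgl_GLEAN_10015193 had the largest separation, at a ratio of 13.8. Its normalised counts were 14.63, 36.52 and 30.22 for crown roots, 3049, 1863 and 2000 for lateral roots and 504, 998 and 768 for primary roots. Its 3 root types did not overlap, and its means were 27.1 ± 11.3 in crown roots and 2304 ± 649 in lateral roots (SD, n = 3), with the lateral root mean 85.0 times the crown root mean, the largest such ratio of the 76. The next was Pgl_GLEAN_10020001, at 12.1. Its values were 49.1, 58.8 and 64.8 in crown roots, 1795, 3384 and 1617 in lateral roots and 905, 999 and 782 in primary roots. Here the crown root replicates were close together and again all 3 root types were apart.

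After these the ratio dropped to 6.54 in Pgl_GLEAN_10028542 and 6.39 in Pgl_GLEAN_10026856. Pgl_GLEAN_10028542 had 12.5, 22.3 and 18.4 in crown roots, 1009, 882 and 812 in lateral roots and 168, 411 and 146 in primary roots. Pgl_GLEAN_10026856 had 51.2, 60.9 and 409 in crown roots, 11281, 10658 and 7839 in lateral roots and 2613, 6412 and 3826 in primary roots. Crown root replicate 3 of this gene was far above the other crown root replicates and still below every other library.

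The other 6 of the 10 highest ratios lay between 5.02 and 5.78. Pgl_GLEAN_10013144, Pgl_GLEAN_10013548 and Pgl_GLEAN_10016160 had lateral above primary roots in every replicate. Their crown root means were 92.3 ± 47.1, 155 ± 28.7 and 37.0 ± 5.81, their lateral root means 2917 ± 653, 3572 ± 857 and 795 ± 249, and their primary root means 1042 ± 233, 1169 ± 232 and 309 ± 92.1 (SD, n = 3 throughout). By contrast, in Pgl_GLEAN_10032778, Pgl_GLEAN_10008260 and Pgl_GLEAN_10001512 lateral and primary roots overlapped. Pgl_GLEAN_10032778 averaged 41.2 ± 7.13 in crown roots, 394 ± 89.9 in lateral roots and 428 ± 151 in primary roots. Pgl_GLEAN_10008260 averaged 24.3 ± 8.02, 208 ± 52.9 and 195 ± 24.6 in the same order. In both genes crown roots stood apart from 2 other root types whose means differed by less than their spread.

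**Figure D3:**
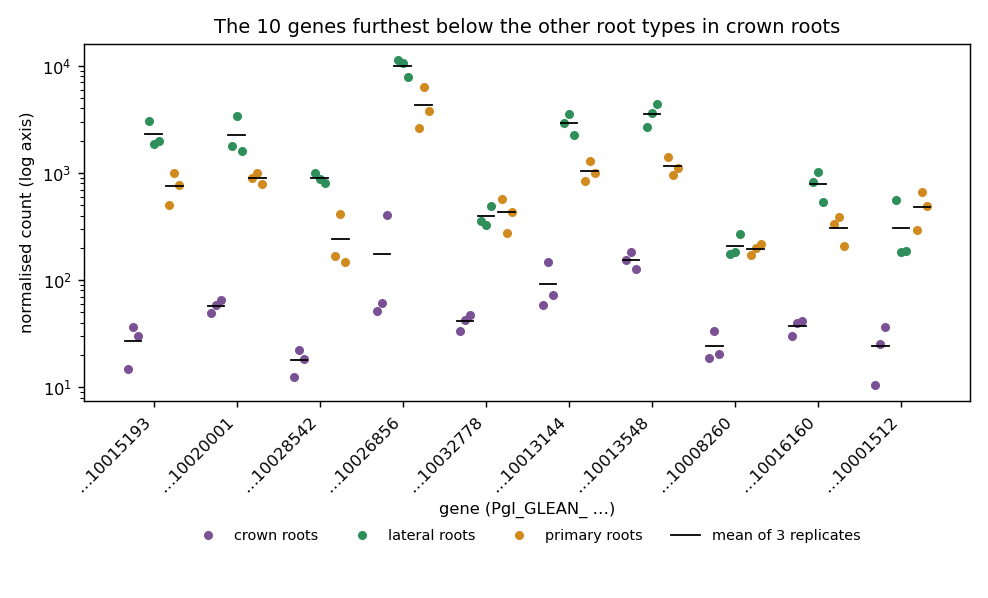
Normalised counts on a log axis for the 10 genes with the highest separation ratio, with 1 point per library and a bar at the mean of the 3 replicates. The 3 crown root points lie below every lateral and primary root point in each gene, and in 7 of the 10 the lateral root points lie above all the primary root points.

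Among the genes with high normalised counts, Pgl_GLEAN_10034570 kept a substantial level in crown roots. Its values were 4505, 3977 and 4173 in crown roots, 24668, 20491 and 22193 in lateral roots and 13576, 21208 and 21825 in primary roots. Lateral and primary roots overlapped, at 5.32 and 4.47 times the crown root mean. Low in crown roots therefore did not mean close to 0, and 8 of the 76 genes had a crown root mean of at least 1000.

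Pgl_GLEAN_10005623 varied little within each root type, with 2371, 2155 and 2114 in crown roots, 6127, 6547 and 6024 in lateral roots and 6446, 6900 and 7108 in primary roots. Pgl_GLEAN_10010048 was similar, with 349, 334 and 336 in crown roots, 884, 1018 and 894 in lateral roots and 818, 907 and 922 in primary roots. In both, lateral and primary roots were close to each other, at 2.82 and 3.08 times the crown root mean in the first and 2.74 and 2.60 times it in the second. The coefficients of variation over the crown root replicates were 6.22% and 2.46%.

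In the remaining genes with high values the root types were graded. Pgl_GLEAN_10021618 had 1155, 1405 and 1188 in crown roots, 10875, 18280 and 22386 in lateral roots and 6686, 5078 and 4848 in primary roots. Pgl_GLEAN_10031924 and Pgl_GLEAN_10009099 averaged 1904 ± 375 and 1182 ± 278 in crown roots, 13171 ± 2066 and 12058 ± 2321 in lateral roots and 5435 ± 1258 and 4761 ± 1326 in primary roots (SD, n = 3). Lateral roots were above primary roots in every replicate of these 3 genes, and they are among the 15 called between these root types. Pgl_GLEAN_10015648 had the tightest crown root values of the 76 (4189, 4220 and 4348), against 12362, 18917 and 12474 in lateral roots and 8895, 8772 and 10406 in primary roots. Pgl_GLEAN_10034211 had 995, 1266 and 1958 in crown roots, 23208, 21197 and 15357 in lateral roots and 5992, 12990 and 5861 in primary roots. In both, the 3 root types did not overlap, but neither was called between lateral and primary roots.

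The largest log2 fold changes of lateral over primary roots were 2.07 in Pgl_GLEAN_10022319, 2.05 in Pgl_GLEAN_10028542 and 1.97 in Pgl_GLEAN_10018958. Pgl_GLEAN_10022319 had 16.7, 40.6 and 47.5 in crown roots, 1939, 2064 and 1799 in lateral roots and 484, 1152 and 173 in primary roots, so that its primary root replicates were widely spread. Pgl_GLEAN_10018958 had 32.4, 23.3 and 66.9 in crown roots, 578, 1229 and 1548 in lateral roots and 298, 221 and 274 in primary roots, where the spread was in lateral roots.

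At the other end, the log2 fold change of lateral over primary roots was -0.88 in Pgl_GLEAN_10024026, -0.76 in Pgl_GLEAN_10001512 and -0.55 in Pgl_GLEAN_10020652. Pgl_GLEAN_10024026 had 22.0, 47.7 and 126 in crown roots, 344, 264 and 306 in lateral roots and 440, 663 and 594 in primary roots. It was 1 of the 3 genes with every lateral root replicate below every primary root replicate. The others, named after their values were seen, were Pgl_GLEAN_10038328, with 391 to 477 in lateral roots and 518 to 855 in primary roots, and Pgl_GLEAN_10017483, with 1911 to 2197 in lateral roots and 2329 to 3509 in primary roots. In Pgl_GLEAN_10001512 and Pgl_GLEAN_10020652 the replicates of lateral and primary roots overlapped.

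Primary root replicate 2 stood apart in many of these genes. It was the highest primary root library in 42 of the 76 (55.3%), against 33.8% of the 14561 genes with at least 100 in every lateral and primary root library. Among the 640 genes called higher in lateral than in primary roots it was the highest in 49.1%. In 12 of the 76 (15.8%) it was at least 2 times both other primary root libraries, against 0.673% (98 genes) of those 14561. Of these 98 genes, 52.0% were called lower in crown than in lateral roots, against 7.89% of the 14561. A high replicate 2 was thus not particular to the 76. Replicates 1 and 3 were at least 2 times both others in 0 of the 76, against 0.446% and 0.199% of those 14561, shares at which 0 of 76 says little. A high replicate 2 can itself bring a gene under the limit on lateral against primary roots, so these shares draw on values the selection used. Without replicate 2 the conditions were met by 73 genes, 60 of them among the 76. The 12 genes were picked out after their values were seen, and what sets this library apart was not tested.

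The contrast was widest in Pgl_GLEAN_10031147, whose primary root replicates 1 to 3 had 169, 823 and 127, and in Pgl_GLEAN_10010819, with 1418, 5937 and 1269. Their crown root means were 42.1 and 306, and their lateral root means 376 and 6222. Primary root replicate 2 was thus above or close to the lateral root level in these genes, while replicates 1 and 3 were between the crown and lateral root levels. The other 10 were Pgl_GLEAN_10027961, Pgl_GLEAN_10017905, Pgl_GLEAN_10019205, Pgl_GLEAN_10027500, Pgl_GLEAN_10028542, Pgl_GLEAN_10022319, Pgl_GLEAN_10018793, Pgl_GLEAN_10034211, Pgl_GLEAN_10037935 and Pgl_GLEAN_10020652.

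**Figure D4:**
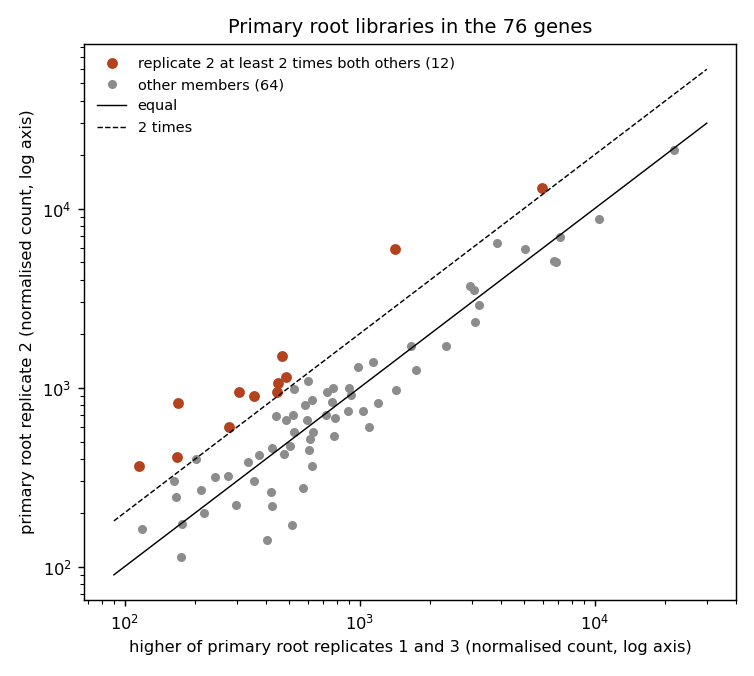
Each point is 1 of the 76 genes, with the higher of primary root replicates 1 and 3 on the horizontal axis and primary root replicate 2 on the vertical axis, both as normalised counts on log axes. The 12 genes in red lie on or above the dashed line of a ratio of 2, and the solid line marks equal values.

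With primary root replicate 2 left out of the mean, the 12 genes had a median ratio of primary to crown root means of 6.18. It was 9.58 with the replicate, and the lowest of the 12 without it was at 3.41. For all 76 the median was 4.29 without the replicate and 4.89 with it. The selection set every primary root value at least 2 times every crown root value. Ratios of at least 2 were thus fixed in advance. Without the replicate, the lateral root mean of the 12 genes was a median of 3.13 times the primary root mean, and 2.17 times it for all 76. The number of the 76 called lower in crown than in primary roots was 34 without primary root replicate 2, 36 without replicate 1 and 34 without replicate 3, and the calls over all genes, in either direction, were 96, 129 and 121 in the same order, against 64 and 313 with all libraries. The count thus depends on each primary root library, for all genes as for the 76, but not on these alone. Leaving out a crown or lateral root library also lowered it, to 43 to 58 of the 76 and 145 to 289 of all genes.

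Among the 68 genes of the nearest set outside, 12 also had primary root replicate 2 at least 2 times both others.

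At the median, replicates of these genes varied more than those of a wider set that includes them. The median coefficient of variation was 29.0% in crown roots, 21.5% in lateral roots and 24.0% in primary roots over the 76 genes. It was 16.5%, 12.5% and 11.5% over the 14561 genes with at least 100 in every lateral and primary root library. This wider set was not matched to the 76 in level, and the part of level in the difference was not tested. In crown roots, 33 of the 76 had a mean under 100, and 11 had fewer than 100 recovered counts over the 3 crown root libraries together. The part of these low counts in the spread was not tested.

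The lowest crown root means were 14.4 in Pgl_GLEAN_10038591, 17.7 in Pgl_GLEAN_10028542 and 19.9 in Pgl_GLEAN_10004589. Pgl_GLEAN_10004589 was listed at 0 in crown root replicates 2 and 3 and at 59.6 in replicate 1, and it was the only gene of the 76 with a crown root library at 0. It had 450, 684 and 642 in lateral roots and 514, 170 and 481 in primary roots. Pgl_GLEAN_10038591 had 2.09, 34.5 and 6.48 in crown roots, 392, 108 and 126 in lateral roots and 163, 300 and 122 in primary roots. Both had coefficients of variation above 100% in crown roots (173% and 122%). Their folds over crown roots thus rest on few counts or on 1 library. The coefficient was also above 100% in Pgl_GLEAN_10026856 (117%), which had 488 recovered crown root counts. There the spread came from crown root replicate 3, at 409 against 51.2 and 60.9 in replicates 1 and 2. Neither Pgl_GLEAN_10038591 nor Pgl_GLEAN_10004589 was called between crown and primary roots.

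The limits of the selection fell within a continuous range. For the fold of 2 over crown roots, Pgl_GLEAN_10015502 (ratio 2.0009) and Pgl_GLEAN_10015648 (2.018) were just inside, whereas Pgl_GLEAN_10027752 (1.997) and Pgl_GLEAN_10035208 (1.984) were just outside. For the level of 100, the lowest values were 104.12 in Pgl_GLEAN_10017905 and 108.15 in Pgl_GLEAN_10038591, against 95.28 in Pgl_GLEAN_10015467 and 86.12 in Pgl_GLEAN_10009880. For the ratio of the lowest lateral to the highest primary root value, Pgl_GLEAN_10028200 (1.999) and Pgl_GLEAN_10028542 (1.974) were inside and Pgl_GLEAN_10007729 (2.038) and Pgl_GLEAN_10005669 (2.046) outside. A further 56 genes met every condition except the level of 100.

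Among the identifiers of the 76 genes, 0 pairs had consecutive numbers or numbers within 10 of each other. The next number was present in the table for 45 of them. The same was not counted over all genes, so no reading of their spacing is given. Of 4 candidate genes that the study names in its QTL regions, 0 were among the 76, which hold 0.385% of all genes. The opposite pattern, with every crown root library at least 2 times every other library and at least 100, was met by 50 genes. Without the condition on lateral against primary roots, which this count does not have, the low crown root pattern was met by 144 genes.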

How the data were processed

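RNA-seq was performed on crown root tips, lateral roots and primary root tips of pearl millet, with 3 libraries each. With the TOGGLE toolbox, the authors trimmed reads with cutadapt 3.1, mapped them to ASM217483v2 with HISAT2 2.0.1, assembled transcripts with StringTie 1.3.4, and deposited counts per gene normalised by DESeq2 factors (a signal per gene, here called normalised counts).

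Columns were assigned by the sample descriptions, and 0 were left over. Whole counts were recovered from the step of each column (100% of values within 0.1 of a whole count). In lateral root library 1 and primary root library 1 the smallest value above 0 was 2 steps, so their step rests on larger values and their recovered counts are less certain. Among counts from 1 to 13, the values 4, 8 and 12 are the most frequent. A count is therefore not known to equal a read, and no counting interval is given. Depths ran from 39739052 to 64062081.

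Contrasts were fitted over all 9 libraries with limma 3.58.1 (R 4.3.3) on normalised counts after adding 1 and taking log2, using limma-trend and no block. Calls needed an adjusted p below 0.01 and a change of 1 or more on the log2 scale, which are the authors' thresholds. The procedure was also run on simulated counts with the same spread set for every gene. That run does not cover genes whose replicates vary more. The alternatives were other pseudocounts (0.5, 10), a filter on means under 50, quantile normalisation, scaling to equal totals, no trend, only the root types compared, a replicate block, each library left out, and edgeR 4.0.16 quasi-likelihood on recovered counts. For the selection they were folds of 1.5 and 3 and levels of 50 and 200.

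The genes, lists and settings were chosen with earlier results of these data known. Genes named are those with the 10 highest separation ratios, the 8 highest means, the 3 highest and lowest lateral to primary changes, the 3 lowest crown root means, the 3 lowest and highest crown root coefficients of variation, and the 2 nearest each limit of the selection on either side, with other genes marked as named after their values were seen. No annotation or sequence was used, so gene lists and markers were not applied. Leaf data were not analysed here.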

Additional observations from a re-analysis of the deposited data

How the results depend on the processing

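The number of genes selected was 181 with a fold of 1.5 over crown roots and 27 with a fold of 3, against 76. With levels of 50 and 200, equal totals and quantile normalisation it was 97, 56, 109 and 66, and 59 of the 66 were among the 76. With each library left out it ran from 69 to 131, the highest without crown root replicate 1.

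Between crown and primary roots, 313 genes and 64 of the 76 were called. Without the mean-variance trend these were 108 and 31, and with only these root types fitted 50 and 20. Leave-one-out counts ran from 96 to 289 genes and from 34 to 58 of the 76 (36, 34 and 34 without primary root replicates 1, 2 and 3). For lateral against primary roots, 853 genes and 15 of the 76 were called, against 438 and 4 without the trend. Leave-one-out counts ran from 295 to 1072 genes and from 0 to 20 of the 76, falling to 0 and 3 without lateral root replicates 2 and 3 and to 5 and 6 without primary root replicates 1 and 3. Between crown and lateral roots, from 72 to 76 of the 76 and from 1950 to 2789 of all genes were called under the alternatives run, in a contrast the genes were selected on. edgeR on recovered counts called 248, 748 and 2478 genes between crown and primary, lateral and primary, and crown and lateral roots. The cause of these shifts was not tested.

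Equal totals moved the median of all genes to -0.20 for crown over primary and -0.19 for crown over lateral roots, against medians of -2.47 and -3.41 for the 76. Quantile normalisation raised the number of the 76 lower in lateral than in primary roots to 15, against 12. All 76 stayed lower in crown roots in both contrasts under every alternative. The genes were selected on both contrasts, so this carries no support of its own.

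The labels give replicate numbers but no shared plants, and the correlation of deviations between same-numbered libraries ran from -0.162 to 0.158, above 0.1 in 1 of 9 pairs. With the replicate block, 53 of the 76 were called between crown and primary roots (225 genes) and 11 between lateral and primary roots (683 genes).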
